A study of Mus musculus with 12 samples.

Results

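Interferon-stimulated genes are the genes that cells switch on when interferon, an antiviral cytokine, reaches them. A list of 40 such genes was followed in mouse whole brain. Members were taken by gene name from the array's annotation. A probe had to be clearly above its background in every mouse of some group, and the brightest such probe stood for the gene. This left 38 measured members among 26495 genes in all. No probe carried the name Ifi27, and the Mx1 probe did not pass in any group. Of the 38, 37 were above background on all 12 arrays. Tap1 passed through some groups only, so its level in 6-week wild-type brain, where 0 of 3 arrays were above background, is only an upper bound.

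Total RNA was taken from whole brains of BALB/c mice that were either wild type or Il18 knockout. Il18 encodes interleukin-18, a cytokine best known for raising interferon-gamma output from T and NK cells together with interleukin-12. The mice were 6 or 12 weeks old and received no treatment, and each of the 4 groups held 3 mice with 1 one-colour array per mouse. How the knockout line was made and how long it had been bred to BALB/c were not given in the sources used here. The p-values rest on the spread within groups of these mice alone, which also holds any technical difference between their arrays.

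Type I interferons signal through a receptor of 2 chains, the kinases Jak1 and Tyk2, and a complex that includes Stat2 and Irf9. That complex binds a short DNA element in its target genes, the interferon-stimulated response element, or ISRE. Interferon-gamma uses its own receptor with Jak1 and Jak2 and acts through the GAS element, and it is a strong inducer of Irf1, of the guanylate-binding proteins and of antigen processing. In brain, microglia, endothelium and astrocytes respond to both kinds, and a low steady level of these transcripts is found without infection.

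All levels below are log2 processed signal minus the log2 75th percentile of the same array, so that 0 is that percentile, and all changes are differences of these log2 levels. A member was called when its limma p-value, adjusted by Benjamini-Hochberg over all 26495 genes of the comparison, was under 0.05. Of all spots, between 65.9% and 76.2% per array exceeded background clearly, and 12-week wild-type replicates 2 (76.2%) and 3 (74.0%) led. The markers of neurons, astrocytes and oligodendrocytes were above background on all 12 arrays (6 of 6, 5 of 5 and 5 of 5). Il18 itself stood between 1.51 and 1.93 on the wild-type arrays and between -0.32 and -0.17 on the knockout arrays, so no array went against its label. Whether the Il18 probe falls inside the deletion is not stated in the sources used here.

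The 12 arrays lay on 2 slides. Every wild-type array was on slide 1, together with replicates 1 and 2 of the young knockout. Slide 2 carried replicate 3 of the young knockout and the 3 older knockout mice. The 6 wild-type arrays can therefore be compared within a slide, while genotype at 12 weeks is almost wholly split by slide. The second column of slide 1 held the young wild-type mice and replicate 1 of the older ones, and all other arrays lay in a first column. A slide-blocked fit, which adds slide as a term, was run beside each comparison. At 12 weeks it can tell slide from genotype only through 6-week knockout replicate 3.

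The letters by which this group of genes is best known stood in many of the members' promoters. RefSeq promoter windows on build GRCm38.p6, from 250 bases before to 50 bases after a gene's start, were matched by symbol for 30 of the 40 listed genes. The windows were searched on both strands for the core of the ISRE, GAAANNGAAA. It was found in 15 of 30 members against 3.99% of the 27025 genes in the RefSeq table. The core of the GAS element, TTCNNNGAA, was found in 10 of 30 members (33.3%) against 9.55% of all genes, and in 1 member, Bst2, the 2 kinds of match overlapped. A match is a description of the letters, not evidence that a factor binds there. The stretches below belong to Isg15, whose 3 overlapping matches make it the fullest example, and to the 6 members with a match that differed between genotypes at 12 weeks. They are written 5′ to 3′ on the gene's strand, with capitals for a match to the core or to its reverse complement.
Isg15: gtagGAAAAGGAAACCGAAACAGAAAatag
Ifit1: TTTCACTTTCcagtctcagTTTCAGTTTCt
Oas1a: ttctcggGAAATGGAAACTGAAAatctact
Gbp3: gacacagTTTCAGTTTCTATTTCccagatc
Cxcl10: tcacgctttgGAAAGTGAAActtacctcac
Eif2ak2: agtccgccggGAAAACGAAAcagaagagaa
Ifih1: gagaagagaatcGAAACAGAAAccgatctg
The Isg15 stretch lies at chr4:156200871-156200900 and the Ifit1 stretch at chr19:34640785-34640814. The Oas1a stretch lies at chr5:120907523-120907552 and the Gbp3 stretch at chr3:142559992-142560021. The Cxcl10 stretch lies at chr5:92349083-92349112, the Eif2ak2 stretch at chr17:78882535-78882564 and the Ifih1 stretch at chr2:62646206-62646235. Ifit1 and Gbp3 are on the plus strand and the others on the minus strand. In Eif2ak2 and Ifih1 the match lies just after the start of the gene, and in the others before it.

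Psmb9 and Tap1 are shown for another reason, which is their position. They start back to back, 226 bases apart on chromosome 17, and share 1 promoter. The stretch before the start of Tap1, chr17:34187306-34187555 on GRCm38.p6, is printed on the Tap1 strand and reaches past the start of Psmb9. Neither core was found in the window of either gene, which says only that those letters are not there.
Tap1: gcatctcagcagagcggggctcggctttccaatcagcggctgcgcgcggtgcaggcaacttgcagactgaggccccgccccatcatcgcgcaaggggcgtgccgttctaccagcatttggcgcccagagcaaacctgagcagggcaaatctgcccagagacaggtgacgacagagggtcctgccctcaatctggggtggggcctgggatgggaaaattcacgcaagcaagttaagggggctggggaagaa

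In wild-type brain, interferon-stimulated genes stood higher at 12 than at 6 weeks. The change was positive in 34 of 38 members, with a median of 0.30 against 0.00 over all genes. By limma, 4 members passed the test and all of them rose: the GTPase Gbp11, the apoptosis-linked gene Xaf1, the RNA-editing enzyme Adar and the immunoproteasome subunit Psmb9. These 4 are 10.5% of the members, where 0.638% of all genes were called, and 0.43% were called as higher. In 18 members the 3 arrays at 12 weeks all lay above the 3 at 6 weeks, and in 0 they all lay below. Of all genes, 24.7% separated in one direction or the other. Tap1 is counted in the 34 and in the 18. It passed the filter only through the 12-week groups, where it is high, so it adds nothing to either count. Since RNA was taken from whole brain, more cells of a responding type and more RNA per cell cannot be told apart.

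**Figure D1:**
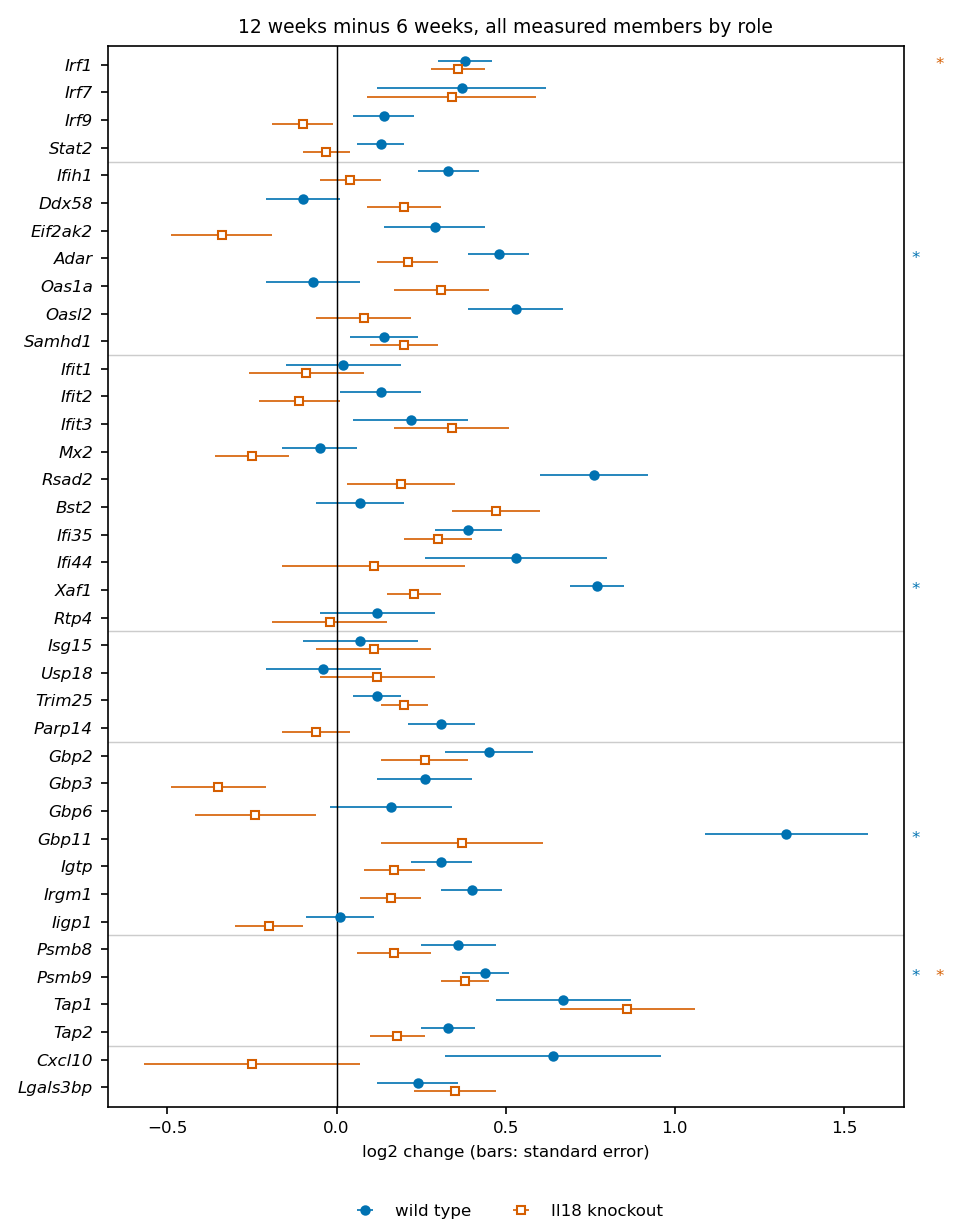
Log2 change from 6 to 12 weeks (x axis, bars are standard errors) of the 38 members, ordered by role with grey lines between roles, in wild-type (blue circles) and Il18 knockout brain (orange squares). Asterisks at the right mark members called in wild type (blue) and in knockout (orange). Most points lie to the right of 0 in both genotypes, and Gbp11 in wild type lies farthest.

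Gbp11 is one of the guanylate-binding proteins, large GTPases that attack the membranes around intracellular microbes. It stood at -4.12, -4.57 and -4.38 in the 6-week wild-type mice and at -3.12, -2.91 and -3.04 at 12 weeks. Its values in the knockout were -3.69, -3.85 and -4.73 at 6 weeks and -3.92, -3.56 and -3.67 at 12 weeks. The 12-week wild-type arrays were the highest 3 of all 12, and the lowest knockout value, at 6 weeks, came from the array on slide 2. The change with age in wild type was 1.33 ± 0.24 (SE, n = 3 mice per group), or 2.51-fold (limma adjusted p = 0.0394; slide-blocked 0.00445). The other 6 GTPases, from Gbp2, Gbp3 and Gbp6 to Igtp, Irgm1 and Iigp1, were between 0.01 and 0.45 higher in wild type and did not pass. Among them Gbp2 (0.45), Irgm1 (0.40) and Igtp (0.31) separated fully by age. The Gbp genes are close in sequence, and whether a probe also binds transcripts of its relatives was not tested.

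Xaf1 is an interferon-induced partner of the apoptosis inhibitor XIAP. Its levels were -1.26, -1.27 and -1.16 in 6-week wild type and -0.60, -0.51 and -0.28 at 12 weeks. In the knockout they were -0.81, -0.88 and -0.84 at 6 weeks and -0.65, -0.52 and -0.65 at 12 weeks. The 3 arrays of 6-week wild type were the lowest of all 12. Xaf1 rose by 0.77 ± 0.08 (SE, n = 3 per group) with age in wild type, or 1.71-fold (limma adjusted p = 0.00442; slide-blocked 0.00674). It kept its call when any 1 of the 6 wild-type arrays was left out, with an adjusted p of at most 0.0253, whereas Gbp11, Adar and Psmb9 each lost theirs in all 6 cases. Their changes without 1 array ran from 1.22 to 1.45 for Gbp11, from 0.44 to 0.54 for Adar and from 0.41 to 0.47 for Psmb9.

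Among the other antiviral effectors, Rsad2 (viperin) produces a nucleotide that stops viral polymerases. It stood at -4.33, -4.16 and -4.15 in 6-week wild type and at -3.65, -3.49 and -3.21 at 12 weeks, and its knockout values were -3.39, -3.55 and -3.84 at 6 weeks and -3.12, -3.47 and -3.60 at 12 weeks. Only the 6-week wild-type arrays stood apart, below the 9 others. The age change in wild type was 0.76 ± 0.16 (SE, n = 3; limma adjusted p = 0.0677) and it was called in the slide-blocked fit (adjusted p = 0.0424), which called 5 members, all higher, against 1.48% of all genes (0.864% higher and 0.611% lower). Ifi35, which binds other interferon-induced proteins, was 0.39 higher (adjusted p = 0.116) with no overlap between ages, while Ifi44 was 0.53 higher (adjusted p = 0.406) with overlap. The effectors Ifit1, Ifit2 and Ifit3 had age differences of 0.02, 0.13 and 0.22 with overlap. Mx2 (-0.05), Bst2 (0.07) and Rtp4 (0.12) overlapped between ages as well. In all, the ages overlapped in 7 of the 10 measured effectors.

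Adar edits adenosines in double-stranded RNA. It stood at 2.39, 2.21 and 2.24 in 6-week wild type and at 2.68, 2.79 and 2.81 at 12 weeks, with 2.56, 2.41 and 2.73 at 6 weeks and 2.73, 2.83 and 2.77 at 12 weeks in the knockout. In wild type the ages did not overlap, and the rise was 0.48 ± 0.09 (SE, n = 3; limma adjusted p = 0.0481, slide-blocked 0.0214). A second Adar probe gave 0.05 ± 0.14 (adjusted p = 0.923 over all probes, where the first probe has 0.0617), so the 2 probes of this gene disagree. Of the RNA sensors, Ifih1 (MDA5) was 0.33 higher with no overlap (adjusted p = 0.141), while Ddx58 (RIG-I) was at -0.10 with overlap. Oasl2, a relative of the 2-5A synthetases, was 0.53 higher (adjusted p = 0.119), again with no overlap, while the synthetase Oas1a was at -0.07. Eif2ak2 (0.29) and Samhd1 (0.14), which depletes nucleotides, overlapped between ages.

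Of the antigen-processing members, the 3 that were above background on all arrays, Psmb8, Psmb9 and Tap2, separated by age in wild type. Psmb8 and Psmb9 are catalytic subunits of the immunoproteasome, and Tap1 and Tap2 form the transporter that carries peptides to class I molecules. Their 4 probes lie within 34.0 kb, at chr17:34319174-34353175 on build mm9. Psmb9 stood at -1.70, -1.65 and -1.71 in 6-week wild type and at -1.26, -1.29 and -1.17 at 12 weeks. In the knockout it stood at -1.72, -1.81 and -1.56 at 6 weeks and at -1.36, -1.28 and -1.32 at 12 weeks. The 6 arrays at 12 weeks were all above the 6 at 6 weeks. Psmb9 rose by 0.44 ± 0.07 (SE, n = 3) in wild type (limma adjusted p = 0.0281; slide-blocked 0.0106).

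Psmb8 was 0.36 higher (adjusted p = 0.163) and Tap2 0.33 higher (adjusted p = 0.105) at 12 weeks in wild type. Tap1 read -6.16, -6.06 and -6.03 in 6-week wild type, none of them above background, and -5.43, -5.58 and -5.22 at 12 weeks, all above it. Its 12-week level was at least 1.39-fold that at 6 weeks, a bound taken from the lowest signal well above background on each array (measured means -5.41 and -6.08, limma adjusted p = 0.165). It passed the filter only through the 12-week groups, where it is high. Its separation by age is partly fixed by that choice, and nothing is read from its difference.

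Of the transcription factors, Irf1 stood at -0.30, -0.17 and -0.34 in 6-week and 0.09, 0.12 and 0.11 in 12-week wild type, with -0.26, -0.37 and -0.28 and then -0.04, 0.20 and 0.01 in the knockout. All 6 arrays at 12 weeks lay above the 6 at 6 weeks here too. Its change in wild type, 0.38 ± 0.08 (SE, n = 3), had a limma adjusted p of 0.0666. Irf7 (0.37), Irf9 (0.14) and Stat2 (0.13) overlapped between ages. In the ISG15 system, Isg15, the ubiquitin-like modifier itself, had an age difference of 0.07 and Usp18, the protease that removes it, by -0.04, so the gene with the fullest ISRE run had one of the smaller differences. Parp14 was 0.31 higher without overlap (adjusted p = 0.195). The Trim25 probe holds a GT repeat of 30 bases, so its values (0.12) may not be those of the gene alone, and the gene's second probe gave 0.28. Of the secreted proteins, the chemokine Cxcl10 was 0.64 higher (adjusted p = 0.396) and Lgals3bp, a galectin-3 binding glycoprotein, 0.24 higher (adjusted p = 0.373), both without overlap.

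**Figure D2:**
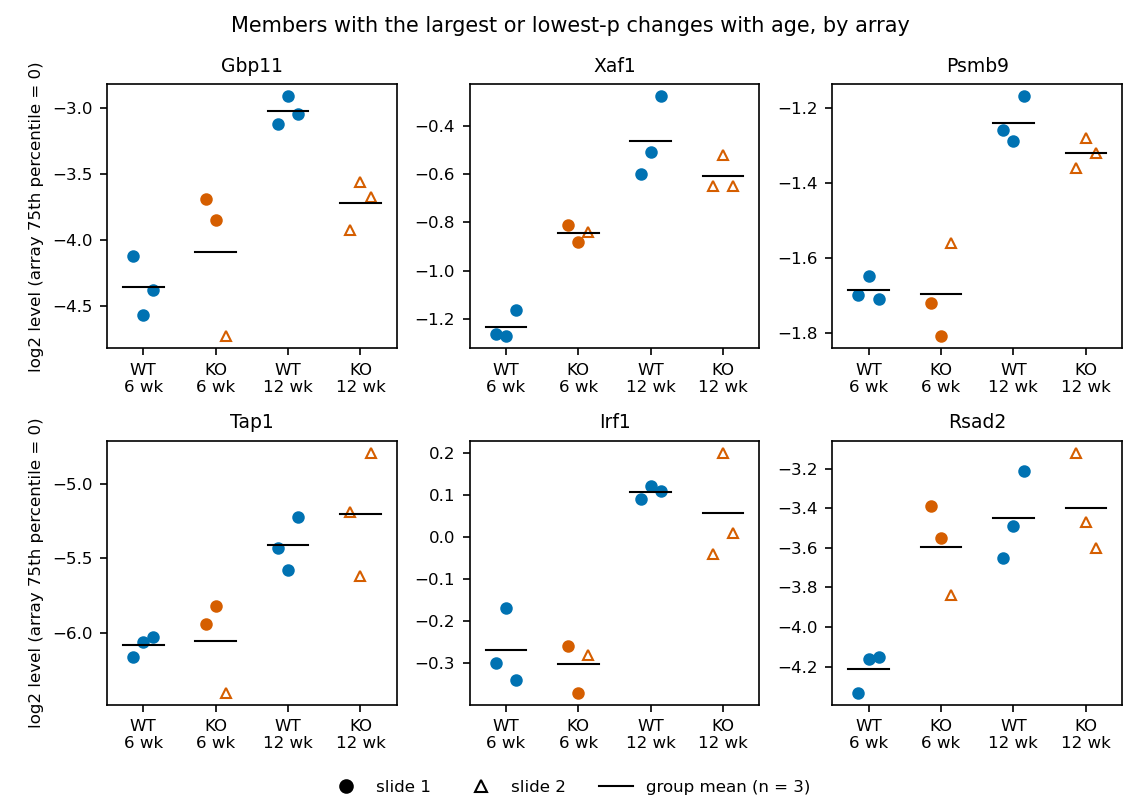
Log2 level (y axis, 0 is the 75th percentile of the array, scale differs by panel) of 6 members on each of the 12 arrays by group, with circles for slide 1, triangles for slide 2 and lines for group means of 3 mice. Psmb9 and Irf1 separate the ages in both genotypes, whereas the 6-week wild-type arrays alone stand low for Xaf1 and Rsad2.

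The 12-week wild-type mice differed among themselves. Replicate 3 was the highest of its group for 29 of 38 members, against 33.3% of all genes, and replicate 1 the lowest for 31 of 38, against 45.2% of all genes. Averaged over the 38 members, the 12-week arrays stood at -1.26, -1.16 and -0.97 and the 6-week arrays at -1.51, -1.38 and -1.43, so each older mouse was above each younger one. Replicate 1 exceeded all 3 of the 6-week arrays in 18 members, replicate 2 in 26 and replicate 3 in 34, where 27.2%, 31.6% and 30% of all genes did so. Replicate 1 is also the sole 12-week wild-type array in the slide column of the 6-week ones. With slide column as a block the age change rests on that array, its median was 0.11, 28 of 38 changes were positive, and Xaf1 alone was called (0.64, adjusted p = 0.0346). Without replicate 3 the median was 0.17. The shares of all genes called and positive with slide column as a block are not given here, so those counts are no result about the members. The part of slide column in the result was not tested beyond these values.

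**Figure D3:**
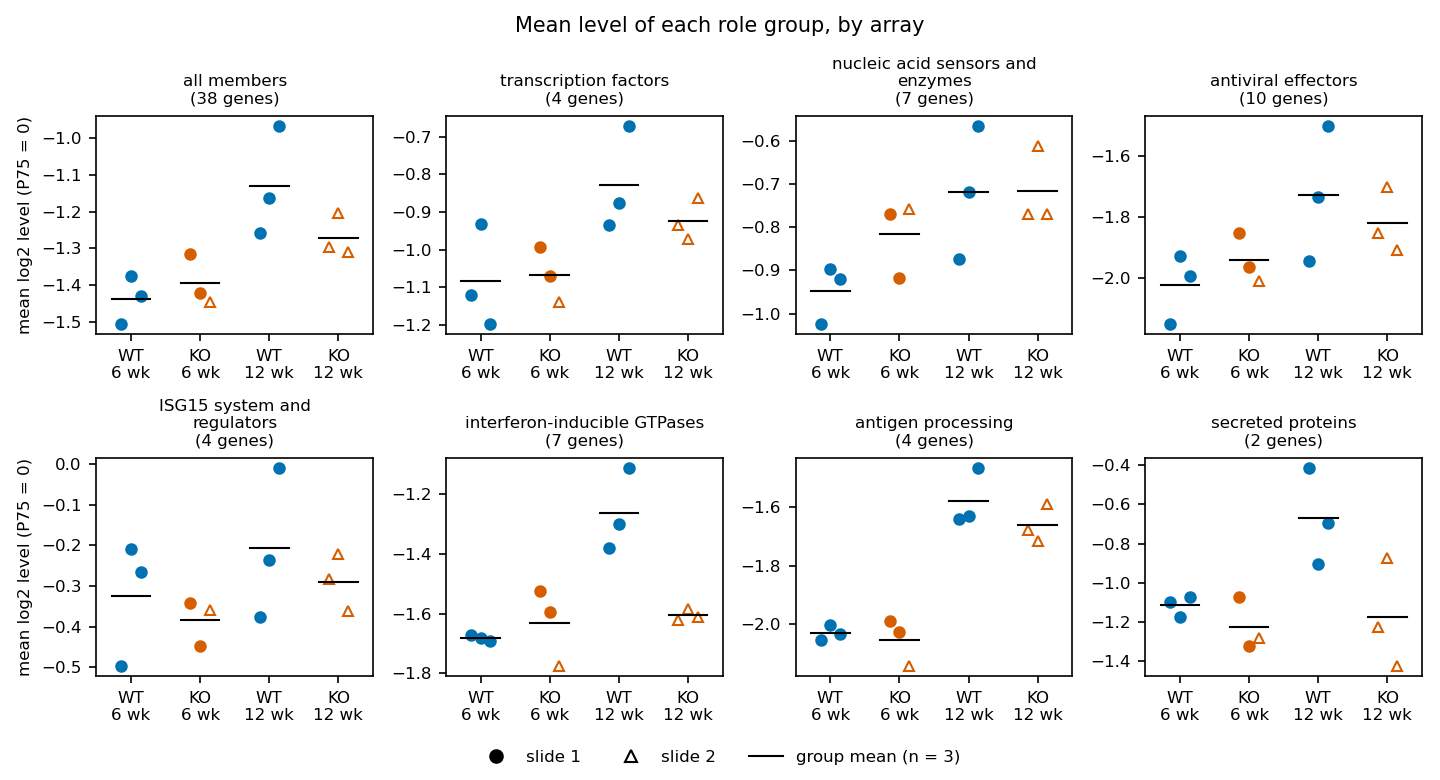
Mean log2 level (y axis, scale differs by panel) over all 38 members and over the members of each role, on each array by group, with circles for slide 1, triangles for slide 2 and lines for group means of 3 mice. For antigen processing all 6 arrays at 12 weeks lie above all 6 at 6 weeks. That mean includes Tap1, which passed the filter only through the 12-week groups, where it is high. For the GTPases the 12-week wild-type arrays alone lie high.

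No marker of microglia or endothelium passed the test with age in wild type. The 9 markers of microglia and macrophages had a median change of -0.08, and their mean level ran from 1.59 to 1.76 at 6 weeks and from 1.54 to 1.63 at 12 weeks, with 0 of 9 called. The 6 endothelial markers had a median of 0.18, ran from 0.00 to 0.20 and then from 0.20 to 0.31, and 0 of 6 were called, though 3 of 6 separated by age and 5 of 6 were positive. The 5 oligodendrocyte markers had a median of -0.41, and all 5 separated by age, with a mean level from 4.49 to 4.50 at 6 weeks and from 4.02 to 4.05 at 12 weeks. Of these, 0 of 5 were called without slide in the fit and 3 of 5 were called lower in the slide-blocked fit. Of the T and NK cell markers, 3 of 8 were measured, and Cd3d, Cd3g, Cd8a, Klrb1c and Ncr1 did not pass the filter. The part of any cell type in the age change was not tested.

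In the knockout, 26 of 38 members stood higher at 12 weeks, with a median of 0.17 against -0.01 over all genes. Psmb9 and the transcription factor Irf1 passed the limma test and rose, and 0 members fell. These 2 are 5.26% of the members, where 1.89% of all genes were called, 1.06% as higher and 0.834% as lower. An unadjusted p under 0.05 was found in 14 of 38 members, beside 7110 of 26495 genes. In 12 members the 12-week arrays all lay above the 6-week arrays and in 4 all below, against 26.3% of all genes in either direction. Tap1 is counted in the 26 and in the 12, and because of the filter it adds nothing to either count. Within slide 2, this comparison has 1 array at 6 weeks and 3 at 12 weeks.

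Psmb9 rose by 0.38 ± 0.07 (SE, n = 3) with age in the knockout (limma adjusted p = 0.0404), close to its 0.44 in wild type. Irf1 rose by 0.36 ± 0.08 (SE, n = 3; adjusted p = 0.0484), beside 0.38 in wild type. Tap1 read -5.94, -5.82 and -6.40 at 6 weeks, with 1 of 3 arrays above background, and -5.19, -5.62 and -4.79 at 12 weeks, all above it. Since Tap1 passed the filter only through the 12-week groups and most of its 6-week arrays were not above background, nothing is read from its difference. In the slide-blocked fit the change in the knockout is that against 6-week replicate 3 alone, and it was 0.24 for Psmb9 and 0.33 for Irf1, with 0 members called (0.0717% of all genes, 0.0226% higher and 0.0491% lower) and 29 of 38 changes positive. Of the other antigen-processing members, Psmb8 was 0.17 and Tap2 0.18 higher, and with Psmb9 these 3 separated by age in the knockout as in wild type.

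Psmb9 and Irf1 each kept their call in the knockout in 1 of 6 fits that left 1 array out. Their changes in these fits ran from 0.32 to 0.44 for Psmb9 and from 0.29 to 0.41 for Irf1. Leaving out 6-week replicate 3, so that the ages lie wholly on different slides, gave 10 called members, of which Mx2 (-0.33) and Gbp6 (-0.45) were lower and the others higher. The share of all genes called in that fit is not given here, so the 10 are no result about the members. Leaving out any of the other 5 gave 0 called members, or 1 (Tap1) without 12-week replicate 2. That array was the highest of its group for 27 of 38 members, against 40.4% of all genes. Of the microglia and macrophage markers 1 of 9 was higher with age in the knockout (median 0.19, mean level from 1.61 to 1.74 and then from 1.78 to 1.87), though 0 of 9 in the slide-blocked fit. The 5 choroid plexus markers had a median of 0.62, 4 of 5 separated by age, and their mean level was at most 1.57 on the 6-week arrays and at least 1.74 on the 12-week arrays. The 3 red blood cell markers had a median of 0.84, 2 of 3 separated, and ran from 2.87 to 3.25 and then from 3.46 to 4.20. Of 5 astrocyte markers 4 separated (median -0.19), and none of these 3 lists had a call. The part of these cells in the result was not tested.

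The 2 genotypes share no array in the comparison of ages, so their changes can be set side by side. Both were positive in 23 of 38 members (60.5%), against 24.9% of all genes. The 23 include Tap1, whose place there is partly fixed by the filter. The change was positive in wild type alone in 11 members, in the knockout alone in 3, and in neither in 1. Across the 38 members the 2 changes had a Pearson r of 0.33 and a Spearman rho of 0.31, against -0.05 and 0.02 over all genes, which are a description, since genes are not independent replicates. Members that stood higher in wild type alone included Eif2ak2 (0.29 and -0.34), Gbp3 (0.26 and -0.35), Cxcl10 (0.64 and -0.25) and Irf9 (0.14 and -0.10).

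At 6 weeks, no member differed between knockout and wild type by the test. With limma, 0 of 38 passed after adjustment, where 0.925% of all genes were called, 0.547% as higher and 0.377% as lower. An unadjusted p under 0.05 was found in 6 of 38 members, beside 4903 of 26495 genes. The median change was -0.01, against 0.04 over all genes, with 18 members positive and 20 negative. At this age the wild-type arrays all lay in the second slide column and the knockout arrays all in the first. With slide column as a block, which links them through 12-week wild-type replicate 1, the median was -0.14, 9 of 38 changes were positive and 0 members were called. The shares of all genes called and positive in that fit are not given here. In 7 members the knockout arrays all lay above the wild-type arrays and in 3 all below, against 23.7% of all genes in either direction. The members with the smallest p were 3 antiviral effectors that stood higher in the knockout.

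Xaf1 was 0.39 ± 0.08 (SE, n = 3) higher in the 6-week knockout (limma adjusted p = 0.0638), and Rsad2 was 0.62 ± 0.16 higher (adjusted p = 0.0983). Their array values are given above, and neither overlapped between genotypes. Ifi35 read -2.52, -2.35 and -2.58 in 6-week wild type and -1.99, -2.20 and -2.13 in the knockout, then -2.27, -2.09 and -1.92 and -1.74, -1.80 and -1.86 at 12 weeks. It was 0.38 ± 0.10 higher in the knockout at 6 weeks (limma adjusted p = 0.105), again with no overlap. The slide-blocked fit sets knockout replicates 1 and 2 against wild type, and it gave 0.39 for Xaf1, 0.74 for Rsad2 and 0.39 for Ifi35, with adjusted p-values of 0.113, 0.0909 and 0.167. It called 0 members, against 0.491% of all genes. With slide column as a block the differences were 0.19 for Xaf1, 0.32 for Rsad2 and 0.12 for Ifi35, with adjusted p-values of 0.86, 0.886 and 0.934. Normexp background correction brought Xaf1 (0.46, adjusted p = 0.0278) and Ifi35 (0.37, adjusted p = 0.0488) under the threshold, and quantile normalization Xaf1 (0.44, adjusted p = 0.0337). Against these, Ifit1 was -0.45 and Ifit3 -0.38 in the knockout (adjusted p = 0.198 and 0.265). Of the endothelial markers 1 of 6 was higher in the 6-week knockout in both fits (median 0.29, mean level from 0.29 to 0.43 against 0.00 to 0.20), as was 1 of 4 dendritic cell and monocyte markers (median 0.11), and 0 of 9 microglia and macrophage markers were called. The part of these cells in the result was not tested.

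At 12 weeks, 12 members differed between genotypes, 10 of them lower in the knockout and 2 higher. The lower ones were the chemokine Cxcl10, the GTPases Gbp11, Gbp3 and Iigp1, the cap-binding effector Ifit1, the RNA-sensing kinase Eif2ak2 (PKR) and sensor Ifih1, the transcription factor Irf9, and Parp14 and Psmb8. The higher ones were Oas1a and Ifi35. The 12 are 31.6% of the members, beside 32.9% of all genes, so the share called is that of the background. By direction, 26.3% of members were called lower against 14.5% of all genes, and 5.26% higher against 18.4%. The median change was -0.13, against 0.02 over all genes. In 5 members the knockout arrays all lay above the wild-type arrays and in 12 all below, 17 in all, while 52.4% of all genes separated in either direction.

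None of these calls was kept in the slide-blocked fit. It called 0 members by limma, where it called 0.113% of all genes (0.0377% higher and 0.0755% lower). Without slide in the fit, 18 members had an unadjusted p under 0.05, beside 12042 of 26495 genes. The members' median was -0.13 in both fits, against 0.02 over all genes without slide and -0.04 in the slide-blocked fit. The split also moved with the scaling: with each array set to its median in place of its 75th percentile, 4 members were called higher and 3 lower, 5 of them among the 12. The shares of all genes called with that scaling are not given here. Median scaling raised the median change of all genes from 0.04 to 0.13 at 6 weeks and from 0.02 to 0.14 at 12 weeks, and it put the members' median at 0.09 and -0.01. Slide and genotype at 12 weeks cannot be told apart beyond what the 6-week replicate on slide 2 shows.

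Cxcl10 encodes a chemokine that draws T cells. It stood at -2.13, -3.25 and -2.91 in 12-week wild type and at -4.13, -3.41 and -4.47 in 12-week knockout. At 6 weeks it stood at -3.43, -3.52 and -3.26 in wild type and at -3.40, -3.70 and -4.16 in the knockout, the last from slide 2. The genotypes did not overlap at 12 weeks, although the spread within each was wide (SD 0.57 and 0.54). The difference was -1.24 ± 0.32 (SE, n = 3; limma adjusted p = 0.0172), and -0.63 ± 0.57 in the slide-blocked fit (adjusted p = 0.81).

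Gbp11 was -0.69 ± 0.24 (SE, n = 3) in the knockout at 12 weeks (limma adjusted p = 0.0464), with no overlap, and turned to 0.27 ± 0.24 in the slide-blocked fit (adjusted p = 0.805). Gbp3 read -0.94, -0.56 and -0.71 in wild type and -0.59, -0.78 and -0.73 in knockout at 6 weeks, then -0.65, -0.56 and -0.20 and -1.15, -0.87 and -1.12 at 12 weeks. The 12-week knockout arrays lay below all others but 1 of 6-week wild type. The difference at 12 weeks was -0.58 ± 0.14 (SE, n = 3; limma adjusted p = 0.0123), and -0.53 ± 0.25 in the slide-blocked fit (adjusted p = 0.656). Its 6-week array on slide 2, at -0.73, lay between its 2 slide 1 arrays.

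Ifit1 read -2.84, -2.37 and -2.37 in wild type and -2.81, -2.94 and -3.18 in knockout at 6 weeks, then -2.78, -2.51 and -2.23 and -3.13, -2.95 and -3.12 at 12 weeks. The difference of knockout from wild type was -0.45 ± 0.17 at 6 weeks with overlap (adjusted p = 0.198) and -0.56 ± 0.17 at 12 weeks without (limma adjusted p = 0.0285). Its value at 12 weeks in the slide-blocked fit was -0.26 ± 0.29 (adjusted p = 0.852). Eif2ak2 read -2.93, -2.65 and -2.66 and -2.50, -2.48 and -2.66 at 6 weeks, and -2.72, -2.48 and -2.18 and -3.06, -2.67 and -2.94 at 12 weeks, wild type first. The genotypes overlapped at 12 weeks, and the difference was -0.43 ± 0.15 (limma adjusted p = 0.0457), or -0.26 ± 0.27 in the slide-blocked fit (adjusted p = 0.837).

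Oas1a makes the 2-5A signal that activates RNase L. It read -2.06, -1.69 and -1.78 in wild type and -1.64, -1.77 and -1.57 in knockout at 6 weeks, then -2.12, -1.85 and -1.75 and -1.19, -1.28 and -1.58 at 12 weeks. The 12-week knockout arrays were above every 12-week wild-type array, by 0.56 ± 0.14 (SE, n = 3; limma adjusted p = 0.014), and by 0.42 ± 0.25 in the slide-blocked fit (adjusted p = 0.715). Ifi35, higher by 0.29 (adjusted p = 0.0483), read higher in the knockout at 6 weeks too (0.38, not called).

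Irf9 had the smallest p of the members at 12 weeks (-0.41 ± 0.09, limma adjusted p = 0.00909), and its arrays read 0.09, 0.16 and 0.41 in wild type and -0.22, -0.17 and -0.18 in the knockout. Parp14 (-0.40), Iigp1 (-0.39), Ifih1 (-0.38) and Psmb8 (-0.35) were lower to a like extent, each without overlap. In the slide-blocked fit they were -0.32 for Irf9, -0.32 for Parp14, -0.30 for Iigp1, -0.13 for Ifih1 and -0.05 for Psmb8. When 1 of the 6 arrays was left out, Gbp3, Iigp1 and Irf9 kept their calls in all 6 cases, and Gbp11 lost its call in all 6. The count of called members was 3 without 12-week knockout replicate 1, 6 without replicate 3 of that group and 7 without 12-week wild-type replicate 2. It was between 9 and 10 without any of the other 3. The shares of all genes called in these fits are not given here, so the counts are no result about the members. The 2 probes of Samhd1 differed in sign at 12 weeks (0.24 and -0.32). Of the members called lower, all but Gbp3 also read lower on the slide 2 array of the 6-week knockout than on its 2 slide 1 arrays. That array was the lowest of its group for 17 of 38 members and for 32.2% of all genes. These are descriptions, with no test.

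**Figure D4:**
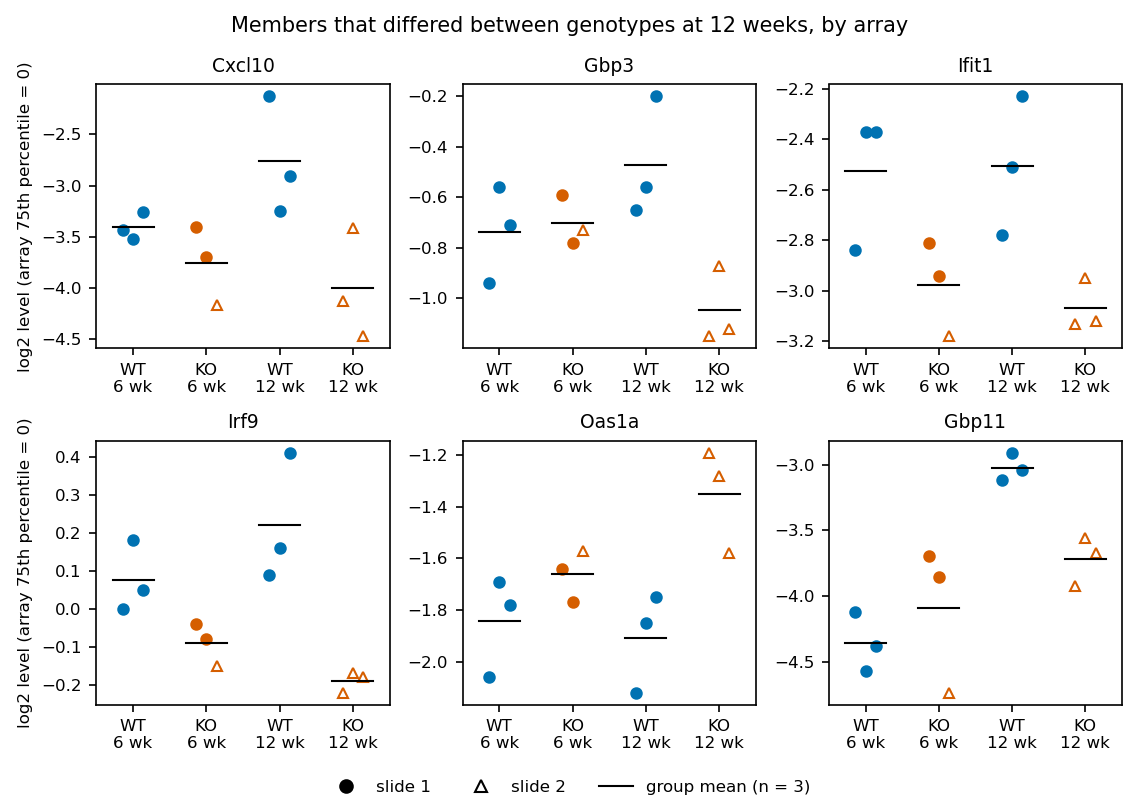
Log2 level (y axis, 0 is the 75th percentile of the array, scale differs by panel) of 6 members called at 12 weeks, on each of the 12 arrays by group, with circles for slide 1, triangles for slide 2 and lines for group means of 3 mice. For Cxcl10, Ifit1, Irf9 and Gbp11 the 6-week knockout array on slide 2 lies below the 2 on slide 1.

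**Figure D5:**
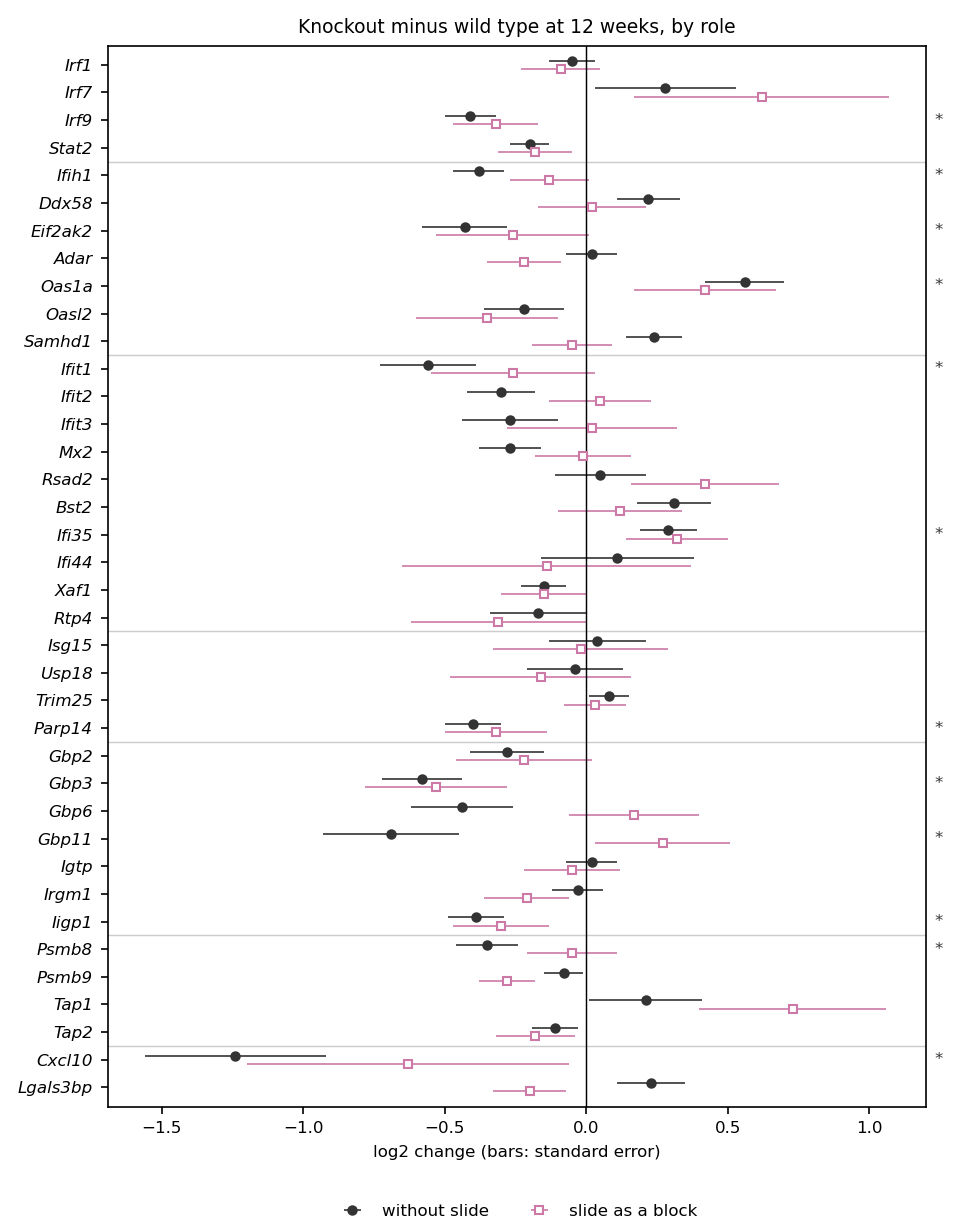
Log2 difference of knockout minus wild type at 12 weeks (x axis, bars are standard errors) of the 38 members by role, from the fit without slide and from the slide-blocked fit. Asterisks mark the 12 members called without slide, and the slide-blocked fit called 0. Gbp11 moves from -0.69 to 0.27.

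Markers of other cell types were also called at 12 weeks, where 18.4% of all genes were higher and 14.5% lower. Of the microglia and macrophage markers, 4 of 9 were higher in the knockout (median 0.24), with mean levels from 1.78 to 1.87 against 1.54 to 1.63. Of 5 measured neutrophil markers 3 were higher (median 1.55, from -2.89 to -1.53 against -3.59 to -3.41), and of the oligodendrocyte markers 3 of 5 (median 0.44, from 4.30 to 4.44 against 4.02 to 4.05). Of 3 measured red blood cell markers 2 were higher (median 0.70, from 3.46 to 4.20 against 2.97 to 3.44). Endothelial markers were higher in 2 of 6 (median 0.25), and astrocyte markers were higher in 2 and lower in 1 of 5 (median -0.16). In the other lists at most 1 marker was called in a direction. In the slide-blocked fit 0 markers of the 12 lists were called. Their part in the result was not tested.

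By promoter letters, the 15 members with an ISRE core had a median of -0.20 at 12 weeks (6 called) and the 15 without it 0.02 (3 called). In that comparison 32.9% of all genes were called, so these counts are no result about the letters. With age in wild type the medians were 0.26 with the core (0 called) and 0.38 without it (3 called), where 0.638% of all genes were called. These are descriptions of the members whose windows were matched, with no test.

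Whether the genotype effect differed between ages was asked by the difference of the 2 contrasts. It was negative in 28 of 38 members, with a median of -0.18 against -0.01 over all genes. With limma, 0 members passed after adjustment, where 0.189% of all genes were called (0.0453% higher and 0.143% lower). An unadjusted p under 0.05 was found in 9 of 38 members, beside 5184 of 26495 genes. The smallest p-values belonged to Xaf1 (-0.54 ± 0.12, limma adjusted p = 0.102), Gbp3 (-0.61 ± 0.19, adjusted p = 0.163) and Eif2ak2 (-0.63 ± 0.21, adjusted p = 0.169). In the slide-blocked fit they were -0.54, -0.58 and -0.52, with adjusted p-values of 0.337, 0.524 and 0.581, and 0 members were called against 0.0679% of all genes (0.0264% higher and 0.0415% lower). Without 6-week knockout replicate 3, 2 members were called, Xaf1 and Gbp11, and the share of all genes called in that fit is not given here. With all arrays in the fit, no member's age change was shown to differ between genotypes.

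The genes that make, sense and relay interferon were followed in the same comparisons. Among the interferons, 5 of 11 listed genes were measured. The 1 call among them was Ifng at 12 weeks, with -5.79, -5.33 and -5.39 in wild type and -7.64, -6.89 and -7.46 in the knockout, none of the last 3 above background. Wild type was at least 1.31-fold higher (measured means -5.50 and -7.33). Ifng passed the filter only through 12-week wild type, where it is high, so nothing is read from its test. The 6-week knockout array on slide 2 also read low, at -7.19. None of the 6 interferon receptor chains passed in any of the 4 comparisons of 2 groups, where between 0 and 1 of them had an unadjusted p under 0.05.

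Among 11 kinases, STATs and their brakes, 3 were higher in the 12-week knockout: Tyk2 (0.44), Jak2 (0.37) and Ptpn2 (0.21). Of 16 measured inducers of interferon, 5 were higher there and 2 lower. Beside 18.4% of all genes higher and 14.5% lower in that comparison, these counts are no result about the lists. The largest were the transcription factor Irf3 (0.63, adjusted p = 0.00403), the adaptor Ticam1 (0.59) and the RNA-sensing receptor Tlr3 (-0.51). Irf3 also rose with age in the knockout (0.43, adjusted p = 0.0415). None of these was called in the slide-blocked fit, and Irf3 was 0.32 higher at 12 weeks (adjusted p = 0.508).

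On the interleukin-18 and interferon-gamma axis, 8 of 11 genes were measured. Il18 was -1.84 ± 0.10 at 6 weeks (limma adjusted p = 2.32e-05) and -1.94 ± 0.10 at 12 weeks (adjusted p = 1.21e-05), and it stayed called in the slide-blocked fit at both ages. At 12 weeks Tbx21, the master factor of interferon-gamma-producing T cells, was 1.10 higher in the knockout, and Ciita, which drives class II genes, was -1.08. Neither was called in the slide-blocked fit (0.86 and -0.46). Il12rb1, a chain of the interleukin-12 receptor, fell with age in wild type by 0.90 (adjusted p = 0.0413; slide-blocked 0.0176).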

How the data were processed

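RNA from 12 mouse brains was hybridised to 12 one-colour Agilent arrays. The deposited scanner files hold a processed spot intensity, background-corrected in version 10.7.3.1 of Agilent Feature Extraction (named in the submitters' processing notes, with columns per the file headers), with marks for outlier and above-background spots. The authors' deposited value table differed from these intensities by at most 0.498%. Of 62976 spots, 59305 were not controls. Here, log2 intensities were set to each array's 75th percentile over the spots that were not controls. Spots of a probe were then averaged without its outlier spots, which were kept where all of its spots were outliers. In limma 3.58.1 (R 4.3.3), 26495 genes were tested with 4 group means and 8 residual degrees of freedom. Tests were two-sided, with Benjamini-Hochberg adjustment per comparison. Bounds use the lowest signal well above background.

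The members and lists were chosen with earlier results of these data known. In each comparison the 6 called members with the largest change, filled to 3 by smallest p, were given in full. Up to 3 called genes per pathway list were named. Any measured member could be named with its change. Alternatives were slide and slide column as blocks, a replicate block, background correction, scaling, the deposited table, probe filters, the mean over probes, only the groups compared, and leaving out each array. The fit was tested on simulated data. The number of arrays limits the precision. Probe positions are those of the files (mm9), and promoters are RefSeq's on GRCm38.p6.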

Additional observations from a re-analysis of the deposited data

How the results depend on the processing

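At 12 weeks, the count of members that differed between genotypes was 0 with slide as a fixed or random block and 7 with median scaling or with no filter on dim probes, against 12, and Gbp11 turned to 0.27 with slide as a fixed block. With age in wild type, 4 became 1 with slide column as a block, with the replicate block or with no filter, 2 with median scaling and 0 with only the groups compared. With age in the knockout, 2 became 0 with slide as a fixed or random block, slide 2 alone, slide column, the replicate block, no filter or only the groups compared, and 1 with median scaling. At 6 weeks, 0 became 2 with normexp background correction and 1 with quantile normalization. Leaving out 1 array gave 0 to 0 members at 6 weeks, 3 to 10 at 12 weeks, 1 to 1 with age in wild type, 0 to 10 with age in the knockout (10 without 6-week replicate 3) and 0 to 2 for the difference between ages (2 without that array). Apart from the slide-blocked fit, the shares of all genes called under these alternatives are not given here. The cause of the shifts in these counts was not tested. Deviations of same-numbered mice correlated between -0.20 and 0.11 (median -0.01, 18 pairs). Those of mice with different numbers correlated between -0.16 and 0.18 (median 0.005, 36 pairs). Whether the replicate numbers pair the mice is not stated, and these correlations cannot decide it. Tap1 lies at the background in young brain, which limits its values.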
